A study of Mus musculus with 6 samples.

Results

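GABA-A receptor subunit transcripts were measured in the prefrontal cortex of mice with and without a disrupted *Pla2g4e* gene. The 7 genes described here, *Gabra2*, *Gabra3*, *Gabra4*, *Gabra5*, *Gabrb1*, *Gabrb2* and *Gabrd*, were taken by gene identifier from 56923 genes in the count tables, where 12 further GABA-A receptor subunit genes are listed. All 7 were among the 19084 genes tested. The KO group held 3 libraries from mice labelled Pla2g4e KO, and the WT group held 3 libraries from wild-type mice. According to the methods of the study, the constitutive knockout strain is C57BL/6N-A tm1Brd Pla2g4e tm2a, whose *Pla2g4e* allele is expected to be null because its transcript splices into a LacZ gene-trap cassette. *Pla2g4e* encodes a calcium-dependent enzyme that makes N-acylated phospholipids. The labels name no treatment and give neither the age, sex and litter of the animals nor the substrain of the WT mice. The question addressed was whether the amounts or the proportions of these subunit transcripts differed between KO and WT cortex.

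GABA-A receptors are chloride channels opened by GABA, the main inhibitory transmitter of the cortex, and each channel is a ring of 5 subunits drawn from several families. The usual channel combines alpha and beta subunits, which form the GABA sites at their interfaces, with a gamma or a delta subunit. Receptors with a gamma subunit gather at synapses and carry fast inhibition, whereas receptors with the delta subunit lie outside synapses and carry a persistent current that neurosteroids enhance. The alpha subunit sets much of the pharmacology and the location of the channel: alpha 2 is known from the axon initial segment, alpha 3 from deep cortical layers and developing cortex, alpha 4 as the forebrain partner of delta, and alpha 5 from extrasynaptic receptors.

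The coding sequences of the 6 alpha and beta genes show where close relatives differ in a way that matters for their drug response, so a short stretch of each is given from the GENCODE M21 transcripts on the GRCm38 assembly, 5′ to 3′ on the coding strand. The 4 alpha genes are shown around the codon for the residue that decides whether classical benzodiazepines can bind, in capitals, which encodes histidine in *Gabra2*, *Gabra3* and *Gabra5* and arginine in *Gabra4*. The stretches lie in coding exons at chr5:71014493-71014519 (minus strand, exon 5), chrX:72501156-72501182 (minus strand, exon 5), chr5:71641140-71641166 (minus strand, exon 4) and chr7:57488879-57488905 (minus strand, exon 5) in the order of the lines.
Gabra2: gataccttctttCACaatgggaaaaag
Gabra3: gataccttcttcCACaatggtaaaaaa
Gabra4: gatactttcttcAGGaatggaaagaaa
Gabra5: gacacgttcttcCACaacggcaagaag

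The 2 beta genes are shown around the codon, in capitals, for the residue of the second transmembrane segment that decides sensitivity to the anaesthetic etomidate. This codon encodes serine in *Gabrb1* and asparagine in *Gabrb2*. The stretches lie in exon 8 of each gene at chr5:72121969-72121995 and chr11:42597561-42597587, both on the plus strand of GRCm38.
Gabrb1: atgaccaccatcAGCactcacctcagg
Gabrb2: atgaccacaatcAACacccacctccgg

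Outside such codons the genes are similar but far from identical. In pairwise alignments of their longest coding sequences, with gaps left out, identity was highest between *Gabra2* and *Gabra3*, at 77.2% of 1330 aligned bases. *Gabrb1* and *Gabrb2* were identical at 75.1% of 1403 aligned bases. Pairs across families came close to this, with *Gabra3* and *Gabrb2* at 74.9%. The lowest pair was *Gabra2* and *Gabrb1* at 71.2%.

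In the assembly of the count tables, GRCm39, 3 of the genes lie close together on chromosome 5. *Gabra2* spans chr5:71114940-71253192 and *Gabra4* spans chr5:71727092-71815651, both on the minus strand, and *Gabrb1* spans chr5:71815456-72306380 on the plus strand. The 5′ ends of *Gabra4* and *Gabrb1* overlap by 196 bases on opposite strands, and the counting used the strand. *Gabra3* lies at chrX:71476287-71700454, *Gabra5* at chr7:57057420-57159807, *Gabrb2* at chr11:42310584-42519855 and *Gabrd* at chr4:155469437-155482569.

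The libraries held between 11792463 and 14594230 counted fragments, and 12 of 12 fixed markers of excitatory cortical neurons were detected. The transcript of the targeted gene did not separate the groups. *Pla2g4e* gave 5.94, 8.12 and 7.96 CPM (fragments per 1e+06 scaled fragments) in the KO libraries, against 7.83, 11.3 and 13.2 CPM in the WT libraries, a log2 fold change of −0.55 (SE 0.21, limma-voom adjusted p = 0.635), with KO 2 and KO 3 above WT 1. KO 1 and WT 1 stood apart by *Xist*, the RNA of the inactive X chromosome of female cells, which reached 1386 CPM and 969 CPM in them and at most 0.245 CPM in the others. The same libraries had the highest summed level of 10 fixed olfactory bulb neuron markers, 905 CPM in KO 1 and 472 CPM in WT 1 against 299 to 443 CPM elsewhere, and both lay above the other 4 libraries for 7 of the 10. The summed level of 12 fixed interneuron markers was also highest there, 1594 and 1531 CPM against 1143 to 1218 CPM, but both lay above the others for 4 of the 12 only. *Gad1* reached 580 CPM in KO 1 and *Cck* 404 CPM in WT 1, the highest values of these genes, while KO 1 was the lowest library for *Pvalb* (20.1 CPM), *Sst* (80.4 CPM) and *Lhx6* (13.6 CPM). Astrocyte markers summed to 6911 CPM in KO 1 and 6848 CPM in WT 1 against 5627 to 6698 CPM, with both above the others for 9 of 12, and microglial markers to 497 and 540 CPM against 431 to 491 CPM, with both above for 4 of 12. Thalamic markers summed to 303 and 180 CPM against 147 to 173 CPM, with both above for 3 of 10. *Calb2* is on this list and on the olfactory bulb list. KO 1 was also the lowest library for 8 of the 12 excitatory neuron markers. WT 2 had the highest choroid plexus marker sum, 36.2 CPM against 7.70 to 16.6 CPM, with *Ttr* at 26.8 CPM against 0.251 to 2.12 CPM. Between the groups, the KO estimate was below 0 for 11 of 12 excitatory neuron markers (median log2 fold change −0.13) and above 0 for 12 of 12 striatal (0.36), 10 of 10 olfactory bulb (1.04) and 12 of 12 astrocyte markers (0.10). It was above 0 for 11 of 12 oligodendrocyte markers (0.16) and 6 of 9 tested thalamic markers (0.17), beside 51.9% of all genes. For 7 of 12 interneuron markers it was below 0 (−0.15). At an unadjusted limma-voom p under 0.05, which 7.82% of all genes had, 4 interneuron markers were lower in KO and 2 higher. Also counted were 2 lower excitatory, 3 higher olfactory bulb and 2 higher thalamic markers. Striatal neurons, oligodendrocytes and astrocytes had 1 higher marker each. None of the markers of these 7 lists passed adjustment in limma-voom. The part of these differences in the values below was not tested, and in bulk tissue fewer cells of a type and less RNA per cell cannot be told apart.

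*Gabra3* had the highest level per length in all 6 libraries. In fragments per kb of exon and per 1e+06 scaled fragments, the unit of every level below, its mean was 47.4 ± 3.56 (SD, n = 6). The other genes followed within a narrow band, with means of 20.9 ± 2.25 for *Gabrb2*, 19.4 ± 1.30 for *Gabra2*, 18.8 ± 0.548 for *Gabra5*, 17.7 ± 0.515 for *Gabra4*, 16.2 ± 2.55 for *Gabrd* and 14.5 ± 0.869 for *Gabrb1*. *Gabra3* was 2.27-fold above its neighbour *Gabrb2* and higher in 6 of 6 libraries (exact sign-flip permutation test, two-sided p = 0.0313, the smallest that 6 libraries allow, adjusted p = 0.0938 over 6 neighbouring pairs). *Gabra5* was 1.06-fold above *Gabra4*, again in 6 of 6 libraries with the same p. The other 4 neighbours were not separated beyond their spread over libraries. Their 1.04- to 1.11-fold steps held in 4 or 5 of 6 libraries (exact sign-flip permutation test, adjusted p from 0.313 to 0.344). The pairs and their directions came from the mean levels in these same libraries, so these p-values are a description only.

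These steps between genes rest on the length used. The lengths counted in the files sum all annotated exons, from 2875 bases for *Gabrd* to 13838 bases for *Gabrb1*. With the longest protein-coding transcript of each gene instead, *Gabra3* stayed first, *Gabrb2* second and *Gabrb1* last, but *Gabra3* exceeded *Gabrb2* by 1.53-fold and *Gabra5* moved below *Gabra4*, at 0.796 of its level.

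**Figure D1:**
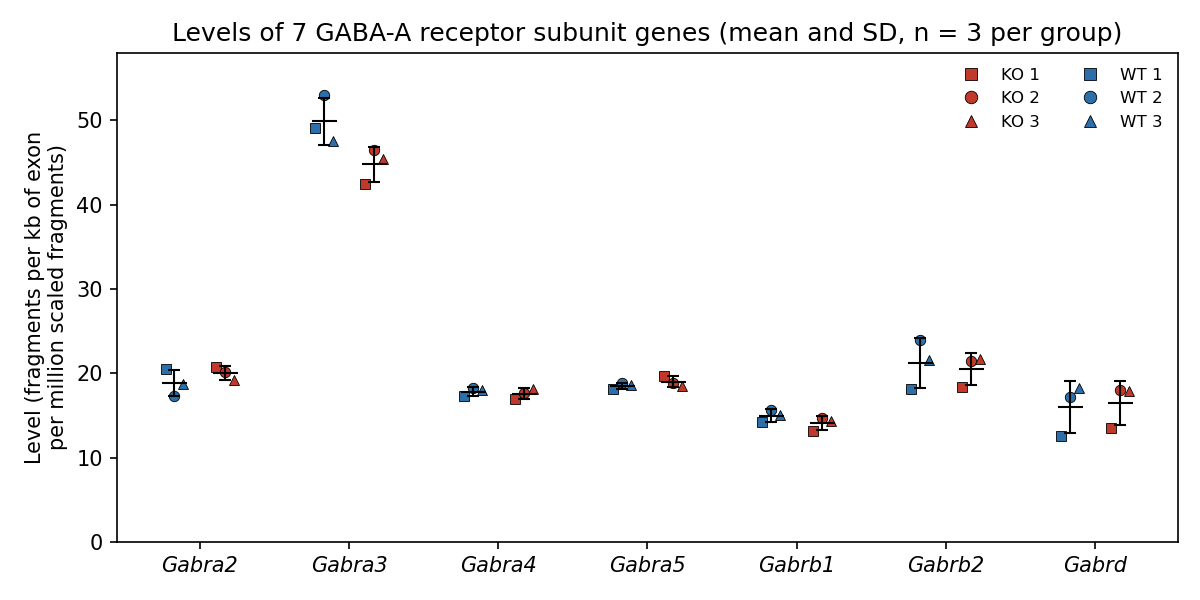
Level of each subunit gene in each library, in fragments per kb of exon per 1e+06 scaled fragments, with KO in red, WT in blue, a marker shape per replicate number, and bars for the mean and SD of 3 libraries. *Gabra3* stands between 42.5 and 53.0, above every other gene, and the squares, KO 1 and WT 1, are the lowest of their groups for *Gabrb2* and *Gabrd*.

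The genes differed widely in how much they varied over the 6 libraries. *Gabra4* and *Gabra5* had coefficients of variation of 2.91% and 2.92%, close to the 2.69% and 3.73% that counting their fragments alone would give. *Gabrd*, the extrasynaptic delta subunit, varied most, at 15.7% against 4.09% from counting, although no library held fewer than 459 of its fragments. *Gabrb2* followed at 10.8%, *Gabra3* at 7.52%, *Gabra2* at 6.66% and *Gabrb1* at 5.98%, each more than 2 times its counting error. Counting error leaves out differences between samples, so these comparisons are a description only.

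Among the alpha genes, *Gabra3* was the one whose groups did not overlap. Its level reached 42.5, 46.5 and 45.4 in the KO libraries, against 49.1, 53.0 and 47.6 in the WT libraries. Every KO library thus lay below every WT library, with KO 1 lowest and WT 2 highest, beside the marker differences between KO and WT given above, whose part was not tested. The log2 fold change was −0.16 (SE 0.07, 95% confidence interval −0.30 to −0.01), a KO level of 0.898 of that in WT, with an unadjusted p of 0.0390 and an adjusted p of 0.635 in limma-voom over all genes. The difference therefore did not pass the test. *Gabra3* was lower in KO under all 16 alternatives, by 0.11 to 0.19 on the log2 scale, but its unadjusted p was under 0.05 in 10 of them and its adjusted p ranged from 0.359 to 0.999. In limma-voom without KO 1 the log2 fold change was −0.12 (adjusted p = 0.925), without WT 2 it was −0.11 (adjusted p = 0.901), and in the 4 libraries with low *Xist* it was −0.13 (adjusted p = 0.999).

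*Gabra2*, the alpha subunit of the axon initial segment, stood at 20.7, 20.2 and 19.2 in KO and at 20.5, 17.3 and 18.8 in WT. The groups overlapped, because WT 1 lay near the top of the KO range, and WT 2 was the lowest library. The log2 fold change was 0.09 (SE 0.07, 95% confidence interval −0.07 to 0.25, limma-voom adjusted p = 0.745). It was 0.03 without WT 2 and 0.15 without WT 1. As background, mice of the C57BL/6J substrain carry an intronic deletion in *Gabra2* that lowers its mRNA and C57BL/6N mice do not.

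*Gabra5*, the extrasynaptic and benzodiazepine-sensitive alpha subunit, stood at 19.7, 18.8 and 18.4 in KO and at 18.1, 18.8 and 18.6 in WT. KO 1 was above the other 5 libraries, which lay close together, and the groups overlapped. The log2 fold change was 0.04 (SE 0.07, 95% confidence interval −0.11 to 0.19, limma-voom adjusted p = 0.895), and 0.0091 without KO 1.

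*Gabra4*, the benzodiazepine-insensitive alpha subunit that pairs with delta, stood at 16.9, 17.7 and 18.2 in KO and at 17.3, 18.2 and 18 in WT. The lowest library of each group was the one with high *Xist*, and the groups overlapped almost fully. Its log2 fold change of −0.02 (SE 0.06, limma-voom adjusted p = 0.947) was the smallest in size among the 7 genes. It turned to 0.0082 without KO 1 and to 0.0057 with scaling by library totals alone. The 95% confidence interval of −0.16 to 0.12 leaves room for changes of up to about the size estimated for *Gabra3*.

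The beta genes both had lower means in KO. *Gabrb1* stood at 13.1, 14.7 and 14.3 in KO and at 14.2, 15.7 and 15.1 in WT. KO 1 was lowest and WT 2 highest, and the groups overlapped through WT 1. The log2 fold change was −0.09 (SE 0.07, 95% confidence interval −0.24 to 0.06, limma-voom adjusted p = 0.723). It was below 0 under all 16 alternatives, but it was −0.04 without KO 1 and −0.06 without WT 2.

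*Gabrb2*, the etomidate-sensitive beta subunit of the pair, stood at 18.4, 21.5 and 21.7 in KO and at 18.1, 24.0 and 21.6 in WT. One library in each group, KO 1 and WT 1, was low, WT 2 was the highest, and the groups overlapped. The log2 fold change was −0.04 (SE 0.10, 95% confidence interval −0.26 to 0.17, limma-voom adjusted p = 0.917). It was above 0 without KO 1 (0.03) and without WT 2 (0.05), and −0.15 without WT 1.

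*Gabrd*, which encodes the delta subunit of extrasynaptic receptors, stood at 13.5, 18 and 17.9 in KO and at 12.5, 17.2 and 18.3 in WT. The split within each group was larger than any difference between them, with KO 1 and WT 1 below the other 4 libraries. The log2 fold change was 0.04 (SE 0.14, 95% confidence interval −0.27 to 0.35, limma-voom adjusted p = 0.95), the widest interval of the 7. Without WT 1 it turned to −0.13 and without KO 1 it rose to 0.19.

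**Figure D2:**
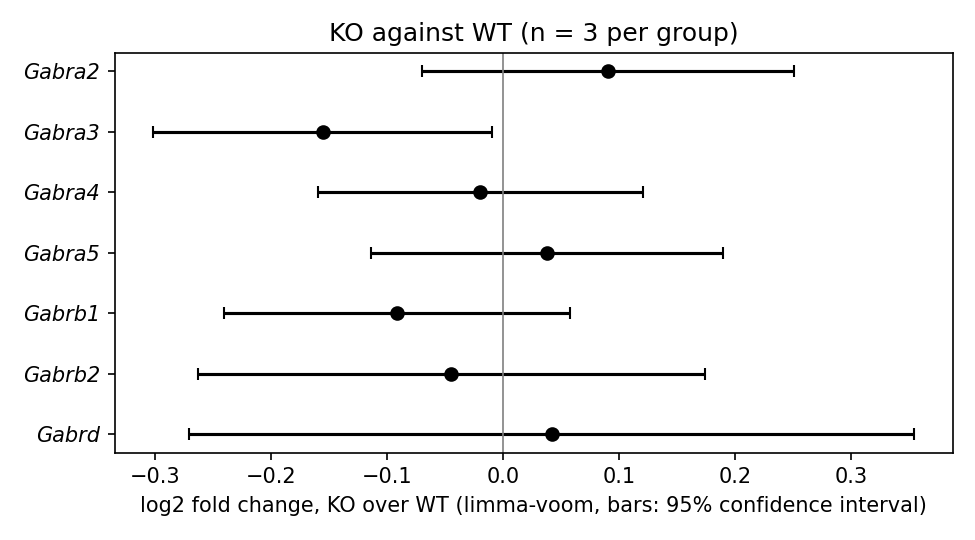
log2 fold change of each subunit gene, KO over WT, from limma-voom over all genes, with bars for the 95% confidence interval (3 libraries per group). The interval of *Gabra3*, −0.30 to −0.01, is the one that leaves out 0 before adjustment, and that of *Gabrd* is the widest.

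Counted together, 0 of the 7 genes passed an adjusted p of 0.05 in limma-voom, as did 0% of all genes tested (lowest adjusted p 0.635). By edgeR's quasi-likelihood test the count over all genes was also 0, and by DESeq2 it was 1, which was none of the 7. At an unadjusted p under 0.05, 1 of the 7 was counted, beside 7.82% of all genes (1492 genes), and 1 of the 7 had groups that did not overlap, beside 13% of all genes. One gene of 7 is close to these shares. The estimates were above 0 for 3 genes and below 0 for 4, with a median of −0.02 beside 0.01 over all genes.

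Proportions were then compared within each library, which removes the scaling between libraries. *Gabra3* made up 29.3%, 29.5% and 29.3% of the summed level of the 7 genes in KO and 32.8%, 32.3% and 30.2% in WT. The KO libraries lay within a fraction of a point of each other and below every WT library, and the group means differed by −2.36 percentage points. The difference was −1.64 points with fragments not divided by length and −0.97 points with all subunit genes as the denominator, and −1.80 points in the 4 low-*Xist* libraries. The exact permutation test gave p = 0.1, the smallest that 3 against 3 libraries allow, and an adjusted p of 0.325 over 13 tests of shares. Of the summed level of the 4 alpha genes, *Gabra3* made up 44.2% ± 1.43 in KO and 47.5% ± 1.67 in WT (SD, n = 3), again without overlap.

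Because shares of the alpha level sum to 100%, a lower share of one gene raises those of the others. *Gabra5*, whose own level overlapped between the groups, took 19.8%, 18.2% and 18.2% of the alpha level in KO against 17.3%, 17.5% and 18% in WT. These shares did not overlap, though KO 3 and WT 3 were close (exact permutation p = 0.1, adjusted p = 0.325), and they are not independent of those of *Gabra3*. *Gabra2* made up 19.8% ± 0.92 of the alpha level in KO and 18% ± 1.72 in WT, and *Gabra4* made up 17.4% ± 0.523 and 17% ± 0.504 (SD, n = 3), both with overlap. The histidine-coding genes *Gabra2*, *Gabra3* and *Gabra5* together made up 82.7% ± 0.523 of the alpha level in KO and 83.0% ± 0.504 in WT (exact permutation p = 0.5).

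*Gabrb1* made up 9.06%, 9.37% and 9.24% of the level of the 7 genes in KO and 9.48%, 9.55% and 9.54% in WT, which do not overlap, a difference of −0.30 percentage points (exact permutation p = 0.1, adjusted p = 0.325). The difference was −0.75 points with fragments not divided by length and −0.067 points with all subunit genes as the denominator. Between the betas no such order appeared, with *Gabrb1* at 40.7% ± 0.968 of their summed level in KO and 41.5% ± 2.23 in WT. The shares of *Gabra2*, *Gabra4*, *Gabra5*, *Gabrb2* and *Gabrd* among the 7 genes overlapped between the groups, with differences from −0.018 to 1.13 percentage points and exact permutation p from 0.3 to 0.9. The largest, 1.13 points for *Gabra2*, was 0.381 points without WT 2, and that of *Gabra5*, 0.709 points, was 0.14 points without KO 1. That of *Gabra4*, 0.204 points, was 0.083 points without WT 2 and 0.36 points without KO 2. None of these shares could reach 0.05 at this number of libraries.

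**Figure D3:**
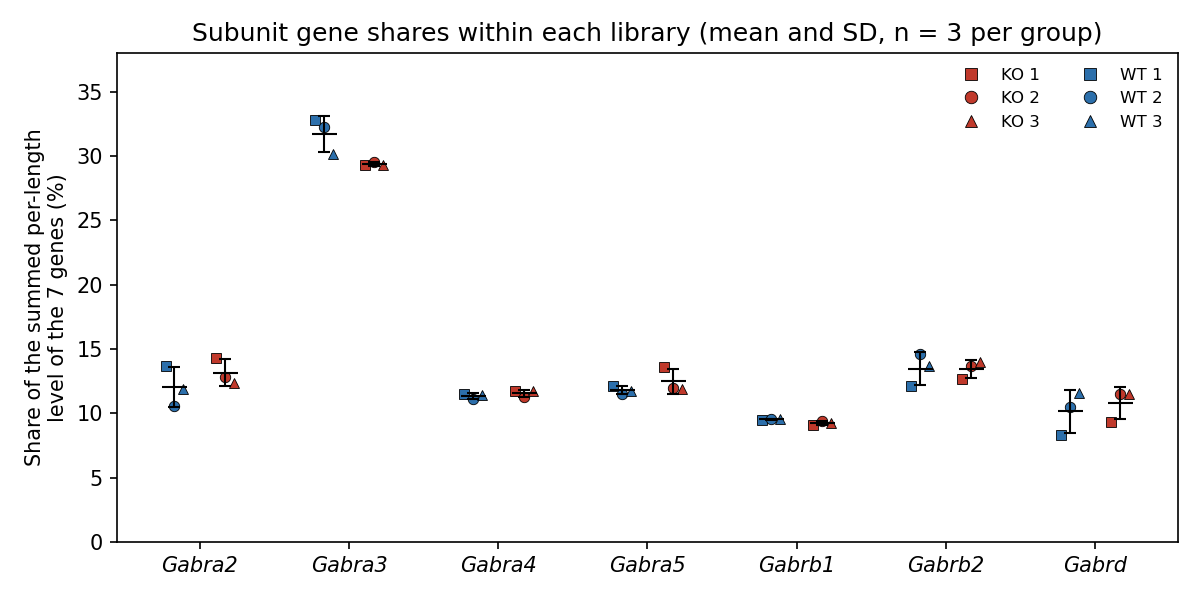
Share of each subunit gene in the summed per-length level of the 7 genes, in percent, with KO in red, WT in blue and bars for the mean and SD of 3 libraries. The 3 KO libraries sit together near 29.4% for *Gabra3*, below the WT libraries at 30.2% to 32.8%.

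The 4 ratios between partner or alternative subunits overlapped between the groups. *Gabrd* stood at 0.797, 1.02 and 0.985 times the level of its partner *Gabra4* in KO and at 0.724, 0.946 and 1.02 times in WT. KO 1 and WT 1 had the low ratios, and the mean log2 ratios differed by 0.07 (exact permutation p = 0.6). This difference was −0.078 without WT 1 and 0.18 without KO 1. *Gabrb2* stood at 1.40, 1.46 and 1.52 times *Gabrb1* in KO and at 1.28, 1.53 and 1.43 times in WT, a log2 difference of 0.05 (exact permutation p = 0.7). That difference was −0.024 without WT 1 and 0.11 without WT 2. *Gabra4* was 0.204 to 0.219 of the sum of *Gabra2*, *Gabra3* and *Gabra5* in KO and 0.197 to 0.212 in WT (log2 difference 0.04, exact permutation p = 0.5), and the difference was 0.0089 without KO 3 and 0.012 without WT 1. *Gabra5* was 0.932 to 0.961 of *Gabra2* in KO and 0.885 to 1.09 in WT (log2 difference −0.05, exact permutation p = 0.7). Here the difference was 0.020 without WT 2 and −0.13 without WT 1. All 4 ratios had an adjusted p of 0.7 in this permutation test.

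For *Gabrd* and *Gabrb2* the larger split ran across the genotypes. Read from a fit with a term for high *Xist*, a reading chosen after the values had been seen, *Gabrd* was lower in the high-*Xist* libraries by a log2 difference of −0.46 (SE 0.08, limma-voom adjusted p = 0.0103). KO 1 and WT 1 had 38.8 and 36.0 CPM of *Gabrd* against 49.6 to 52.6 CPM in the 4 other libraries. It was the 1 gene of the 7 to pass in this term, beside 1.06% of all genes (202 of 19084). Of *Gabrb2* they had 117 and 115 CPM against 137 to 153 CPM in the others, a log2 difference of −0.28 (SE 0.07, limma-voom adjusted p = 0.0793), which did not pass. *Gabrb1* (−0.13), *Gabra4* (−0.07) and *Gabra2* (0.13) also had both high-*Xist* libraries on one side of the other 4 in CPM, and *Gabra3* (−0.07) and *Gabra5* (0.02) did not. The share of all genes with such a separation was not counted, so it cannot be read as particular to these genes. High *Xist*, replicate number 1 and the higher olfactory bulb, thalamic, interneuron, astrocyte and microglial marker sums fall on the same 2 libraries and cannot be told apart.

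**Figure D4:**
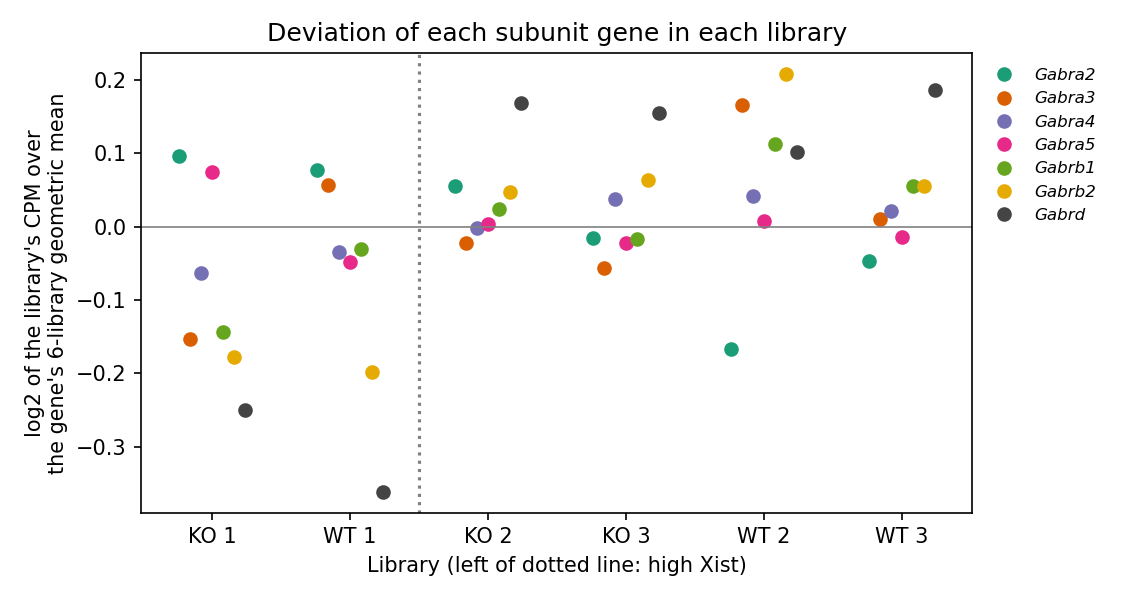
Deviation of each subunit gene in each library, as log2 of its CPM over the geometric mean of the gene's 6 libraries, with the high-*Xist* libraries KO 1 and WT 1 left of the dotted line. *Gabrd* lies at −0.25 and −0.36 there and between 0.10 and 0.19 in the other libraries, and *Gabrb2* at −0.18 and −0.20.

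How the genes varied together was read over the 6 libraries. Of 21 pairs of the 7 genes, 11 had a Pearson r above 0, 7 had an unadjusted exact permutation p under 0.05 and 0 passed adjustment over the pairs (lowest adjusted p 0.117). The share of such pairs over all genes was not counted, so these counts are a description only. *Gabrb2* and *Gabra4* had the highest r, 0.92 (Spearman's rho 0.94, exact permutation p = 0.00833 and 0.0167, adjusted p = 0.117 for both), and 0.66 without KO 1 and WT 1, the 2 libraries farthest from the median of *Gabra4*. *Gabrb2* and *Gabrd* had an r of 0.87 (rho 0.49, exact permutation p = 0.0556 and 0.356, adjusted p = 0.146 and 0.622), which turned to −0.95 without KO 1 and WT 1, the farthest for *Gabrb2*, and so rested on them. *Gabra2* ran opposite to *Gabrb2*, with r of −0.88 (rho −0.89, exact permutation p = 0.0111 and 0.0333, adjusted p = 0.117 and 0.175) and −0.70 without KO 1 and WT 2, the farthest for *Gabra2*.

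The genes of most similar pattern were taken as the 2 of highest Pearson r of log2 CPM over the 6 libraries among 10778 genes of sufficient level. They were *Gpatch2* and *Jtb* for *Gabra2*, *Smim10l1* and *Elavl4* for *Gabra3*, *Kif5b* and *Pex5l* for *Gabra4*, and *Ppp4r3a* and *Enah* for *Gabra5*. For the others they were *Iqgap2* and *Adgrl3* for *Gabrb1*, *Fmn1* and *Ngdn* for *Gabrb2*, and *Sept4* and *Slc16a11* for *Gabrd*. Their r lay between 0.981 and 0.999, which is a description only, since they are the highest of many values over few libraries.

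The rest of the GABA system was read from fixed lists. Of the 12 other GABA-A subunit genes 9 were tested, with estimates above 0 for 4 and below 0 for 5, and 1 in each direction had an unadjusted p under 0.05 (beside 7.82% of all genes). None of the 9 passed adjustment in limma-voom, and their median log2 fold change was −0.03. The per-length levels of all 12 summed to 120, 127 and 124 in KO and 130, 138 and 131 in WT, which do not overlap. The 7 genes summed to 145, 157 and 155 in KO and 150, 164 and 158 in WT, which do. The 7 genes therefore made up 55.2% ± 0.507 of the level of all subunit genes in KO and 54.2% ± 0.494 in WT (SD, n = 3, exact permutation p = 0.1 for this share and for the sum of the others).

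No gene of the further lists passed adjustment in limma-voom, and those named here had an unadjusted p under 0.05, as did 7.82% of all genes, and an adjusted p of 0.635. Groups that did not overlap were found for 13% of all genes. Of 24 tested genes of receptor assembly and trafficking, estimates were above 0 for 9 and below 0 for 15, and 2 in each direction had such a p. Those below 0 were *Gabarap*, a linker between GABA-A receptors and the cytoskeleton (log2 fold change −0.19, SE 0.07), and its relative *Gabarapl1* (−0.18, SE 0.07), whose groups did not overlap. Those above 0 were *Prkca*, a protein kinase C (0.22, SE 0.08), and *Plcl1*, which binds beta subunits and phosphatases (0.22, SE 0.09). Of 17 genes of anchoring and adhesion at GABA synapses (9 above 0, 8 below) 1 had such a p, *Mdga1*, a neuroligin-binding protein (0.69, SE 0.28), whose groups overlapped and which was highest in KO 1. Of 12 genes of chloride transport (8 above 0, 4 below) 2 had such a p, *Slc12a2*, the chloride importer NKCC1 (0.23, SE 0.10), and *Wnk1*, a kinase that regulates it (0.16, SE 0.06). Of 9 genes on the list for GABA-B receptors (5 above 0, 4 below) 1 had such a p, *Gabbr2* (−0.18, SE 0.08). Of 6 neurosteroid genes (2 above 0, 4 below) 1 had such a p, *Akr1c14*, a steroid dehydrogenase (−1.06, SE 0.33), with 0.743 to 1.76 CPM across KO libraries against 2.2 to 2.7 CPM across WT libraries. The groups also did not overlap for *Prkca*, *Plcl1*, *Wnk1* and *Akr1c14*, and they overlapped for *Slc12a2* and *Gabbr2*. Of 11 genes of GABA synthesis, release, uptake and breakdown 0 had such a p. Estimates were above 0 for 51.9% of all genes and for all 11 of these (median 0.11). Their summed level was 3869 CPM in KO 1 against 2802 to 3234 CPM in the other libraries.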

How the data were processed

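Polyadenylated RNA of 6 prefrontal cortex samples was sequenced as stranded libraries. The deposited values are raw counts of fragments per gene: per the submitters' processing notes and the file headers, the authors aligned with STAR 2.7.9a and counted exon fragments with featureCounts 1.6.0 (strand option 2) on GENCODE M31, GRCm39. The study's methods name an earlier assembly. Nothing was pooled or normalized. Groups came from the sample titles. That samples came from separate animals is not stated per sample, so p-values measure the spread between libraries.

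Following the study, genes with at least 6 fragments in at least 1 library were scaled by TMM (edgeR 4.0.16) and tested by limma-voom (limma 3.58.1, R 4.3.3), two-sided, with Benjamini-Hochberg adjustment over 19084 genes. The procedure was tested on simulated data. Intervals are 95%. Levels per length divide CPM (fragments per 1e+06 scaled fragments) by kb of exon. Shares and ratios were compared by exact permutation. Sequences were read with Biopython 1.88. The 7 genes, the lists and the tests were chosen with earlier results of these data known. Named beside the 7 genes were list members with an unadjusted p under 0.05, up to 5 a list, and the 2 genes of most similar pattern. The 12 other subunit genes are given as counts and sums.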

Additional observations from a re-analysis of the deposited data

How the results depend on the processing

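Over all genes, the count past an adjusted p of 0.05 was 1 by DESeq2, 24 with a term for *Xist* and 3 in the low-*Xist* libraries, and 0 to 1 when each library was left out. None of these were among the 7 genes. The count at an unadjusted p under 0.05 was 902 by DESeq2, 696 in the low-*Xist* libraries and 782 to 2239 when each library was left out; it was 782 without WT 2, 830 without KO 1 and 2239 without WT 3. Of the log2 fold changes, *Gabra4* turned to 0.0057 with library totals and *Gabra5* to −0.0066 in the low-*Xist* libraries. With 1 library left out, the log2 fold changes ran from −0.043 to 0.0082 for *Gabra4*, −0.15 to 0.048 for *Gabrb2* and −0.13 to 0.19 for *Gabrd*. Likewise the share differences ran from −0.70 to 0.56 percentage points for *Gabrb2* and −0.27 to 1.36 for *Gabrd*. The log2 ratio differences ran from 0.0089 to 0.064 for *Gabra4* to the other alphas, −0.024 to 0.11 for *Gabrb2* to *Gabrb1*, −0.078 to 0.18 for *Gabrd* to *Gabra4* and −0.13 to 0.020 for *Gabra5* to *Gabra2*. With all subunit genes as denominator, an alternative chosen after seeing the data as was the longest transcript length, the *Gabrb2* share difference was 0.13. The causes were not tested. The other 232 values were taken as unchanged, by a rule that differed between results. Among them, fold changes kept their direction and side of the threshold, and share and ratio differences kept their direction. Counts past the threshold stayed at 0. Counts of genes with an unadjusted p under 0.05 ran from 1019 to 2115, beside 1492 in the main fit.

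Deviations of same-numbered libraries correlated at 0.432, 0.111 and −0.028, and the labels tie a number to no shared animal, litter or day. With the replicate block, 0 genes passed and the *Gabra3* log2 fold change was −0.16 (adjusted p = 0.555), and no call changed. The planned coding length from a RefSeq protein table was not run. With 3 libraries per group, the interval of each fold change limits what can be read for *Gabrd* and *Gabrb2*.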
